A study of Mus musculus with 2 samples.

Results

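The names described here are the listed liver microRNAs (miRNAs) whose mature name ends in neither -5p nor -3p, so that the name does not say which side of the hairpin the strand came from. They were chosen by name alone, without use of their values. The deposited table holds 31 of them, beside 104 names ending in -5p and 146 ending in -3p. Small RNA was sequenced from 1 liver labelled as DICER1 mutant (column header hDICER1_Mut) and 1 wild-type liver, both of C57BL/6 mice aged 3 months. The labels give neither the variant, nor the promoter or cell type in which it acts, nor whether the mutant tissue was tumour, although the series text speaks of liver cancer. With 1 library each, an effect of genotype cannot be told apart from one of the animal or the library. No test was run, and all 95% intervals cover counting error only.

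Dicer is the RNase III enzyme that releases a short duplex from a miRNA hairpin, with separate catalytic domains cutting the strand of the 5′ side and the strand of the 3′ side. miRBase, the miRNA catalogue, gives a name without a strand label where a hairpin was recorded with a single mature strand. Such names include paralogues of conserved families and also entries from deep sequencing whose sequence lies in repeats, structural RNAs or messenger RNAs, where a short read need not come from a hairpin.

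The library totals behind the deposited RPM values (reads scaled to a common library size) were 18480608 reads in the mutant and 11432192 in the wild type, and the listed names held 61.2% and 81.8% of them. The hepatocyte strand miR-122-5p had 7303 RPM in the mutant and 14951 RPM in the wild type, and miR-192-5p had 117503 and 326657 RPM, so both libraries carried the labelled tissue's abundant strands. A count of 3 reads is 0.162 RPM in the mutant and 0.262 RPM in the wild type. The table holds only names at least 2-fold apart on the authors' own scale, where each mutant to wild-type ratio is 2.38-fold smaller than the RPM ratio. By RPM this leaves a gap: no name with a ratio between 1.19 and 4.78 is listed.

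The 31 names were set apart by annotation into 4 groups. Near copies of a known family, taken by sequence or by family number, numbered 11: let-7j, miR-101c, miR-21b, miR-21c, miR-30f, miR-378b, miR-378c, miR-378d, miR-3962, miR-3964 and miR-3966. Names whose mature sequence lies in many annotated transcripts numbered 6: miR-3470a (by its family with miR-3470b), miR-3470b, miR-3471, miR-3473b, miR-690 and miR-692. A further 7 lie within or overlap another annotated transcript, namely miR-1291, miR-1983, miR-5101, miR-5114, miR-6481, miR-8094 and miR-8114. No transcript searched held the mature sequence of miR-1983 or miR-5101, which stand here by an overlap of the hairpin only. The transfer RNA gene that the miR-1983 hairpin overlaps was not among the transcripts searched. The other 7 met none of these rules: miR-1195, miR-3963, miR-3970, miR-5128, miR-6236, miR-6412 and miR-8103. The rules did not use introns or the long non-coding RNAs of RefSeq. The hairpins of miR-6412 and miR-6236 overlap such RNAs, Gm36284 and Gm39429. Those of miR-8103 and miR-5128 lie in introns of Osbpl7 and Strbp. RefSeq (GRCm38.p6) holds a mature sequence for 29 of the 31. By its coordinates the mature strand lay on the 5′ side of the hairpin for 14 of these and on the 3′ side for 15.

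The mature sequences of the near copies are shown first, each with a listed family strand where one is compared, because a few bases separate a copy's count from its family's. Capitals mark the seed, bases 2 to 8, which leads target pairing.
let-7j: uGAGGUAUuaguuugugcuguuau
let-7i-5p: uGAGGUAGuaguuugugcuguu
miR-101c: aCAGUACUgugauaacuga
miR-101a-3p: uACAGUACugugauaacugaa
miR-21b: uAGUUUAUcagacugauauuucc
miR-21c: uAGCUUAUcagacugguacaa
miR-21a-5p: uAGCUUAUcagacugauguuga
miR-378b: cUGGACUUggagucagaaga
miR-378c: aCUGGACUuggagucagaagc
miR-378d: aCUGGCCUuggagucagaaggu
miR-3964: aUAAGGUAgaaagcacuaaa
miR-142a-5p: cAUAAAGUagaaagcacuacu

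The next sequences are those found in many transcripts, shown because the same letters recur in transcripts of other genes. Capitals again mark bases 2 to 8.
miR-3470b: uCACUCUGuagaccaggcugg
miR-3471: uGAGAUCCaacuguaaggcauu
miR-3473b: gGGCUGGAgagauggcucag
miR-690: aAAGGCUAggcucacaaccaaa
miR-692: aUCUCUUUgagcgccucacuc

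The last set lies within or overlaps a named RNA of another kind, with the same use of capitals.
miR-1291: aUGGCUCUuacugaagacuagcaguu
miR-6481: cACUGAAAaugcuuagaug
miR-1983: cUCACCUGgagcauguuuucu
miR-5114: aCUGGAGAcggaagcugcaaga
miR-8094: aACUGAAGgacaacgagaaga
miR-8114: uCACCCAUcuccucuccgccu

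Together the 31 names held 203661 reads in the mutant and 120777 reads in the wild type, 1.80% and 1.29% of the reads on listed names. Of these, 155302 and 82943 reads were counted for miR-101c, whose counts nearly repeat those of miR-101a-3p. The near copies without miR-101c held 0.416% and 0.379%. Most of the 31 names were rare. In the mutant they spanned 0.0541 to 8404 RPM and in the wild type 0.0875 to 7255 RPM, and 16 of the 31 had under 100 reads over both libraries. A name was called higher or lower in the mutant where its RPM differed at least 2-fold and its interval did not reach equality. Of the 29 names with at least 10 reads in total, 9 were higher (31.0%), 6 were lower (20.7%) and 14 were neither. Over all 276 listed names with that depth, 62.0% were higher and 7.25% were lower. By the listing limit, the names called higher are those the authors listed as higher: 9 of these names and 171 of all. The median log2 ratio was -0.71 (order-statistic interval -1.27 to 2.33) over the 29 names and 2.74 over all listed names. It was 2.33 over 103 names ending in -5p and 3.48 over 144 names ending in -3p.

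**Figure D1:**
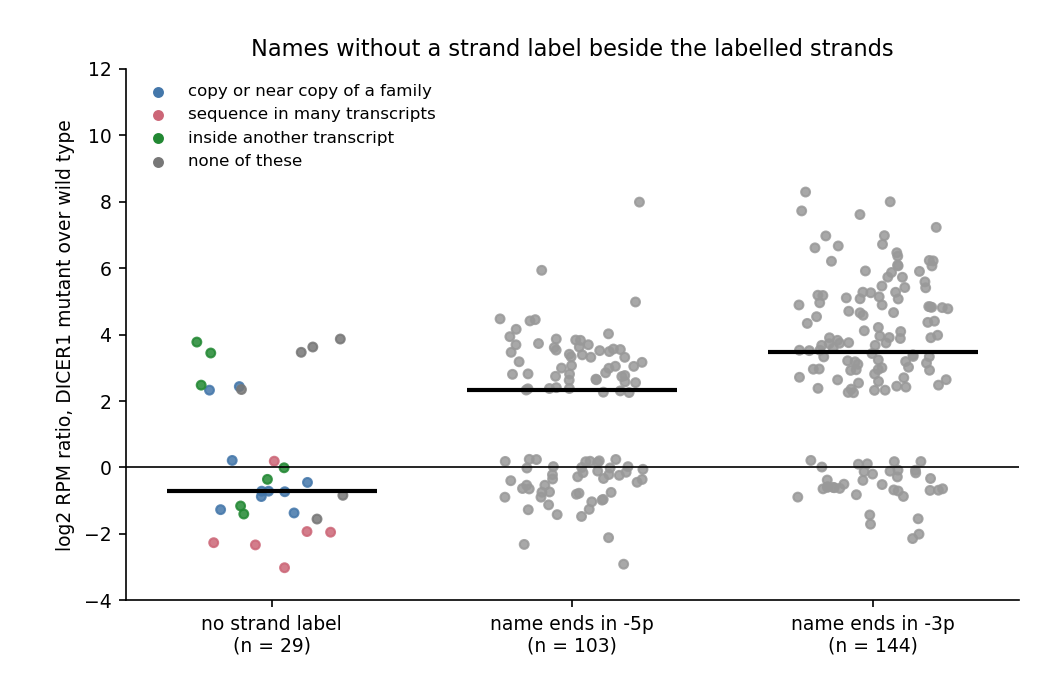
Log2 RPM ratio of the mutant over the wild type (vertical axis) for each listed name with at least 10 reads, by its strand label (columns), with a bar at each column's median; points are single names in 1 library pair, coloured by group in the left column. The left column's median is -0.71, below the medians of 2.33 and 3.48 in the other columns, and the empty band above 0 is the gap left by the listing limit.

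The lower names were not confined to the rarest. With at least 100 reads, 4 of 15 names without a strand label were higher and 5 (33.3%) were lower. Among labelled names of that depth, 144 of 206 were higher and 8 (3.88%) were lower. The median log2 ratios were -0.71 and 3.02. Rarer names, with 10 to under 100 reads, showed no such gap, with medians of -0.18 without a strand label and -0.21 with one. Of these rarer names, 5 of 14 without a label were higher and 1 was lower, beside 18 of 41 labelled names higher and 6 lower. Only 44 of the 250 labelled names had under 100 reads. The limits of 10 and 100 reads act on reads summed over both libraries. A name can thus pass mainly through the library in which it is high. miR-8114 had 102 reads in the mutant and 11 in the wild type, and miR-692 had 19 and 98. The shares and medians at each depth are therefore not independent of the ratios. Of the 276 listed names with at least 10 reads, 29 carried no strand label. Of the 10 of these with the lowest ratios, 5 carried none. Of the 20 lowest, 9 carried none. These 9 include rare names: miR-3471, miR-1195, miR-3966 and miR-30f had 18, 12, 11 and 13 reads over both libraries. The intervals of miR-1195, miR-3966 and miR-30f reached equality. No name without a strand label was among the 20 highest. The side of the hairpin read from the coordinates did not part the calls cleanly: of 14 names on the 5′ side 3 were higher and 2 lower, and of the 13 on the 3′ side with enough reads 5 were higher and 3 lower.

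**Figure D2:**
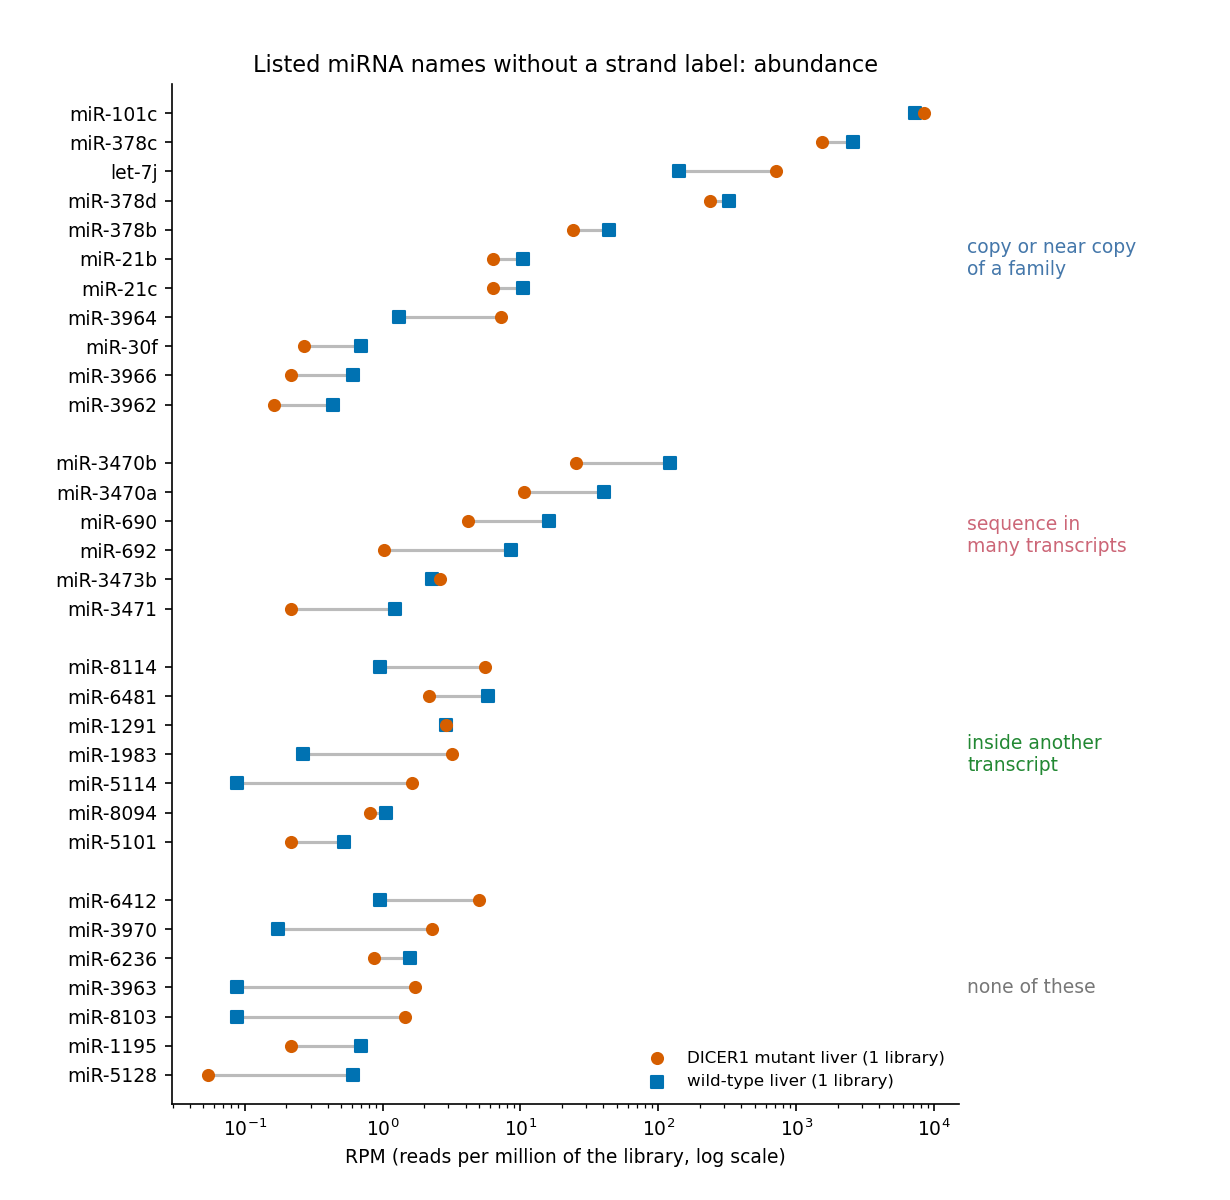
RPM of each of the 31 names (rows, by group) in the DICER1 mutant library (circles) and the wild-type library (squares), on a log axis, with 1 library per genotype. The near copies reach 8404 RPM in the mutant and 7255 RPM in the wild type, and the other groups stay at or below 25.4 RPM in the mutant and 122 RPM in the wild type.

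The near copies carried nearly all of the reads. By RPM, 62.0% of all 276 listed names were higher and 7.25% were lower. Of the 10 near copies with enough reads, 2 (20%) were higher by RPM (let-7j and miR-3964), none was lower, and 8 were neither. These calls depend on the scaling: 8 of the 10 were lower with the authors' factors, TMM and DESeq2, and 7 without the most abundant miRNA of each library. Over all 276 listed names, 105 were lower with the authors' factors, TMM and DESeq2, and 58 without those most abundant miRNAs. With DESeq2 size factors let-7j and miR-3964 had log2 ratios of -0.40 and -0.26 and were called neither. Their summed abundance was 10948 RPM in the mutant and 10358 RPM in the wild type, a ratio of 1.06 (1.05 to 1.06). That sum is mostly miR-101c. Without miR-101c it was 2545 RPM in the mutant and 3103 RPM in the wild type, a ratio of 0.820 (0.809 to 0.832).

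let-7j belongs to the let-7 family, which restrains growth and holds cells in a differentiated state. Its hairpin Mir7j lies on the plus strand of chromosome 3, 140028249 to 140028370 of GRCm38, outside annotated genes. let-7j had 13222 reads (715 RPM) in the mutant and 1628 reads (142 RPM) in the wild type, 5.02-fold higher (4.77 to 5.29). The call was lost with TMM factors, at a log2 ratio of 0.89. Its sequence differs from that of let-7i-5p by the substitution G8U, counted from the 5′ end of let-7i-5p, which falls on the last base of the seed, and let-7j runs on beyond its 3′ end. let-7i-5p itself had 111213 reads in the mutant and 11019 in the wild type, a ratio of 6.24 (6.12 to 6.37). Per 1000 let-7i-5p reads there were 119 let-7j reads in the mutant (117 to 121) and 148 in the wild type (140 to 156). The quotient of the ratios, 0.805 (0.764 to 0.848), lay off equality by more than counting error, so the copy's share was smaller in the mutant library. The other let-7 strands did not share 1 level of difference: let-7e-5p had a ratio of 4.82 (4.57 to 5.08), let-7f-5p 1.02 and let-7g-5p 0.759. Whether reads of let-7i-5p carrying a changed base entered the let-7j count was not tested.

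miR-101c comes from a hairpin on the minus strand of chromosome 9, 3038669 to 3038743. It was the most abundant of the 31 names, with 155302 reads (8404 RPM) in the mutant and 82943 reads (7255 RPM) in the wild type, a ratio of 1.16 (1.15 to 1.17) that turned below equality on the authors' scale and with TMM and DESeq2 factors. All 19 of its bases lie within miR-101a-3p, a strand abundant in liver, and the 2 names differ only in where they begin and end. miR-101a-3p had 155231 reads in the mutant and 82864 in the wild type. The counts of the names differed by 0.0457% in the mutant and 0.0952% in the wild type, and the reads of miR-101c cannot be told apart from those of miR-101a-3p. The related miR-101b-3p had a ratio of 0.640 (0.635 to 0.645).

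miR-21b and miR-21c are named for miR-21, a miRNA raised in many tumours and in inflamed tissue. The hairpin of miR-21b lies in an intron of Egfem1 on the plus strand of chromosome 3, 29636744 to 29636851, and that of miR-21c on the minus strand of chromosome 8, 128278148 to 128278225. Both names had 117 reads (6.33 RPM) in the mutant and both had 119 reads (10.4 RPM) in the wild type, a ratio of 0.608 (0.467 to 0.792) for each. The sequences differ from each other by 5 substitutions (U4C, A16G, U19C, U20A and U21A, from miR-21b to miR-21c, counted from the 5′ end of miR-21b) and share no run longer than 11 bases. How reads were assigned to these names is not given. The identical counts are not read as separate measurements, though both names are counted among the near copies above. Against miR-21a-5p, counted from its 5′ end, miR-21b has C4U, G18A, G21U and A22C, and miR-21c has A16G, G18A, U19C, U20A and G21A and keeps the same seed. miR-21a-5p had 635753 reads in the mutant and 346713 in the wild type, a ratio of 1.13 (1.13 to 1.14). Per 1000 of its reads each copy had 0.184 in the mutant and 0.343 in the wild type, a quotient of 0.536 (0.412 to 0.698), the lowest of the copies with at least 100 reads.

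The 3 copies of miR-378, a miRNA family tied to mitochondrial and lipid metabolism, were all less abundant in the mutant by RPM and all within 2-fold. With the authors' factors the log2 ratios of miR-378b, miR-378c and miR-378d were -2.13, -1.98 and -1.70. On that scale the listing limit itself puts every listed name at least 2-fold apart. All 3 were also called lower with TMM and DESeq2, which shift ratios further down, and without the most abundant miRNA of each library. Their hairpins lie on different chromosomes: that of miR-378b on chromosome 11 (88352773 to 88352864, opposite Msi2), that of miR-378c on chromosome 14 (46954830 to 46954928, opposite Samd4) and that of miR-378d on chromosome 10 (126710282 to 126710391). miR-378c had 28614 reads (1548 RPM) in the mutant and 29374 reads (2569 RPM) in the wild type, a ratio of 0.603 (0.593 to 0.613). miR-378d had 4369 reads (236 RPM) in the mutant and 3692 reads (323 RPM) in the wild type, a ratio of 0.732 (0.700 to 0.765). miR-378b had 442 reads (23.9 RPM) in the mutant and 502 reads (43.9 RPM) in the wild type, a ratio of 0.545 (0.478 to 0.620). Counted from the 5′ end of miR-378c, miR-378b begins 1 base later and has C21A, and miR-378d has A6C and C21G. The change A6C falls in the seed of miR-378d. The listed family strand miR-378a-3p had a ratio of 0.646 (0.641 to 0.651) and miR-378a-5p 0.572 (0.530 to 0.617). Copies and family strands thus stood between 0.545 and 0.732. These ratios may not be independent, because the first 16 bases of miR-378b and of miR-378c are also found in Mir378a. The whole sequence of miR-378a-3p was not compared with the copies. Whether its reads entered their counts was not tested. Per 1000 miR-378c reads there were 153 of miR-378d in the mutant and 126 in the wild type, a quotient of 1.21 (1.16 to 1.27) that lay off equality by more than counting error. For miR-378b there were 15.4 in the mutant and 17.1 in the wild type, a quotient of 0.904 whose interval of 0.794 to 1.03 spans equality.

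miR-3964 is a near copy of miR-142a-5p, a strand of blood cells. Its hairpin lies on the minus strand of chromosome 15, 29713331 to 29713404. It had 134 reads (7.25 RPM) in the mutant and 15 reads (1.31 RPM) in the wild type, 5.53-fold higher (3.23 to 10.1). Counted from the 5′ end of miR-142a-5p it begins 1 base later and has A6G, C20A and U21A. miR-142a-5p had 142767 reads in the mutant and 17856 in the wild type, a ratio of 4.95 (4.87 to 5.02). Per 1000 of its reads miR-3964 had 0.939 in the mutant and 0.840 in the wild type, a quotient of 1.12 whose interval of 0.654 to 2.05 spans equality. The copy and the strand could not be set apart at this depth.

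The 3 rarest names of this group give little. Counted from the 5′ end of the very abundant miR-22-3p, miR-3966 begins 1 base later and has U11C and A14U, so that its seed differs. It had 4 reads in the mutant and 7 in the wild type. Counted from the 5′ end of let-7g-5p, miR-3962 begins 2 bases later, with another seed, and has G20U. It had 3 reads in the mutant and 5 in the wild type, below the minimum of 10. miR-30f stands in this group by its family number alone, at 4 edits from miR-30a-5p and from miR-30e-5p: its hairpin lies on chromosome 4 (120772606 to 120772697, plus strand) opposite Mir30e, and its mature sequence is found on the opposite strand of the Mir30e hairpin. It had 5 reads (0.271 RPM) in the mutant and 8 reads (0.700 RPM) in the wild type, a ratio of 0.387 (0.0995 to 1.34). miR-30a-5p, of the family whose name it bears, had a ratio of 0.538 and miR-30e-5p 0.927.

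**Figure D3:**
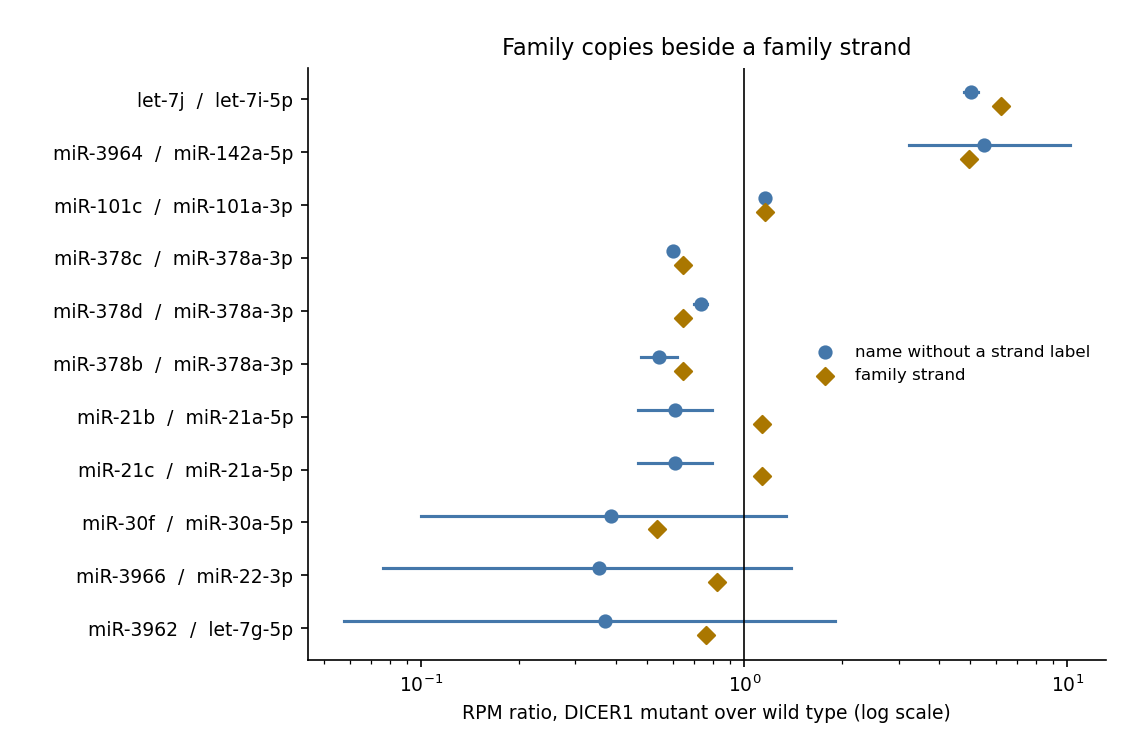
RPM ratio of the mutant over the wild type (log axis) for each near copy (circles, with 95% counting intervals) and for the listed family strand it is set beside (diamonds), in 1 library pair. let-7j and miR-3964 stand near 5 with their family strands at 6.24 and 4.95 (let-7j, let-7i-5p, miR-3964 and miR-142a-5p fall below 1 with DESeq2 size factors), and miR-21b and miR-21c, at 0.608, stand apart from miR-21a-5p at 1.13.

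The names found in many transcripts were mostly lower in the mutant. Of 6 names, 5 (83.3%) were lower by RPM, none was higher and miR-3473b was neither. Over all 276 listed names, 7.25% were lower by RPM and 62.0% were higher. The same 5 names of this group were lower by every scaling tried. On the authors' scale, where the listing limit leaves no name within 2-fold, miR-3473b joined them. It also did so with TMM and DESeq2 factors, which shift ratios further down. Their median log2 ratio was -2.11, with a range of -3.02 to 0.19. Summed over the 6, the mutant had 814 reads (44.0 RPM) and the wild type 2185 reads (191 RPM), 4.34-fold lower in the mutant, a ratio of 0.230 (0.212 to 0.25).

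miR-3470b was the most abundant of them, with 470 reads (25.4 RPM) in the mutant and 1399 reads (122 RPM) in the wild type, 4.81-fold lower (4.33 to 5.35). Its hairpin lies on the plus strand of chromosome 16, 44013852 to 44013977, opposite Gramd1c. The mature sequence was found exactly in GENCODE M21 transcripts of 1067 of 55341 genes (1.93%), of 590 genes on the transcript strand and 504 on the opposite strand. miR-3470a, of the same family in the deposited table, lies on chromosome 6 (83090311 to 83090387, minus strand). It had 196 reads (10.6 RPM) in the mutant and 463 reads (40.5 RPM) in the wild type, 3.82-fold lower (3.22 to 4.54).

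miR-690 and miR-692 were found in fewer transcripts, many of them entries for small RNAs. miR-690 lies in an intron of the growth factor gene Fgf12 on chromosome 16 (28599935 to 28600043, minus strand). Its sequence was found in 19 genes, 15 of them other miRNA entries and the rest BC018473, Fundc2, Gm42826 and, on the opposite strand, Zfp101. It had 77 reads (4.17 RPM) in the mutant and 185 reads (16.2 RPM) in the wild type, 3.88-fold lower (2.96 to 5.13). miR-692 was found in 13 genes, 6 of them miRNA entries and the others Ftl1, which encodes the iron-storing ferritin light chain, with Ftl1-ps1, Ftl1-ps2, Ftl2-ps, Gm12164, Gm15590 and Gm5278. Its hairpins are annotated on chromosomes 17, 4 and 13. miR-692 had 19 reads (1.03 RPM) in the mutant and 98 reads (8.57 RPM) in the wild type, 8.34-fold lower (5.07 to 14.4), the lowest ratio of all listed names with at least 10 reads. Reads from Ftl1 messenger RNA and from a hairpin of miR-692 cannot be told apart.

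miR-3471 had 4 reads (0.216 RPM) in the mutant and 14 reads (1.22 RPM) in the wild type, 5.66-fold lower with a wide interval (1.78 to 23.6). Its sequence was found in 111 genes, 84 on the transcript strand, of which 50 were miRNA entries. miR-3473b, from a hairpin opposite Ccdc162 on chromosome 10 (41670739 to 41670793, plus strand), was the exception in direction. It had 48 reads (2.60 RPM) in the mutant and 26 reads (2.27 RPM) in the wild type, a ratio of 1.14 (0.695 to 1.92) that turned below equality on the authors' scale and with TMM and DESeq2 factors. Its sequence was found in 742 genes (1.34%), 12 of which also hold that of miR-690, 10 of these being miRNA entries. A high number of matching genes thus did not go with a low ratio in every case. The level of messenger RNA in these livers was not measured by these libraries, and the source of these reads was not tested.

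**Figure D4:**
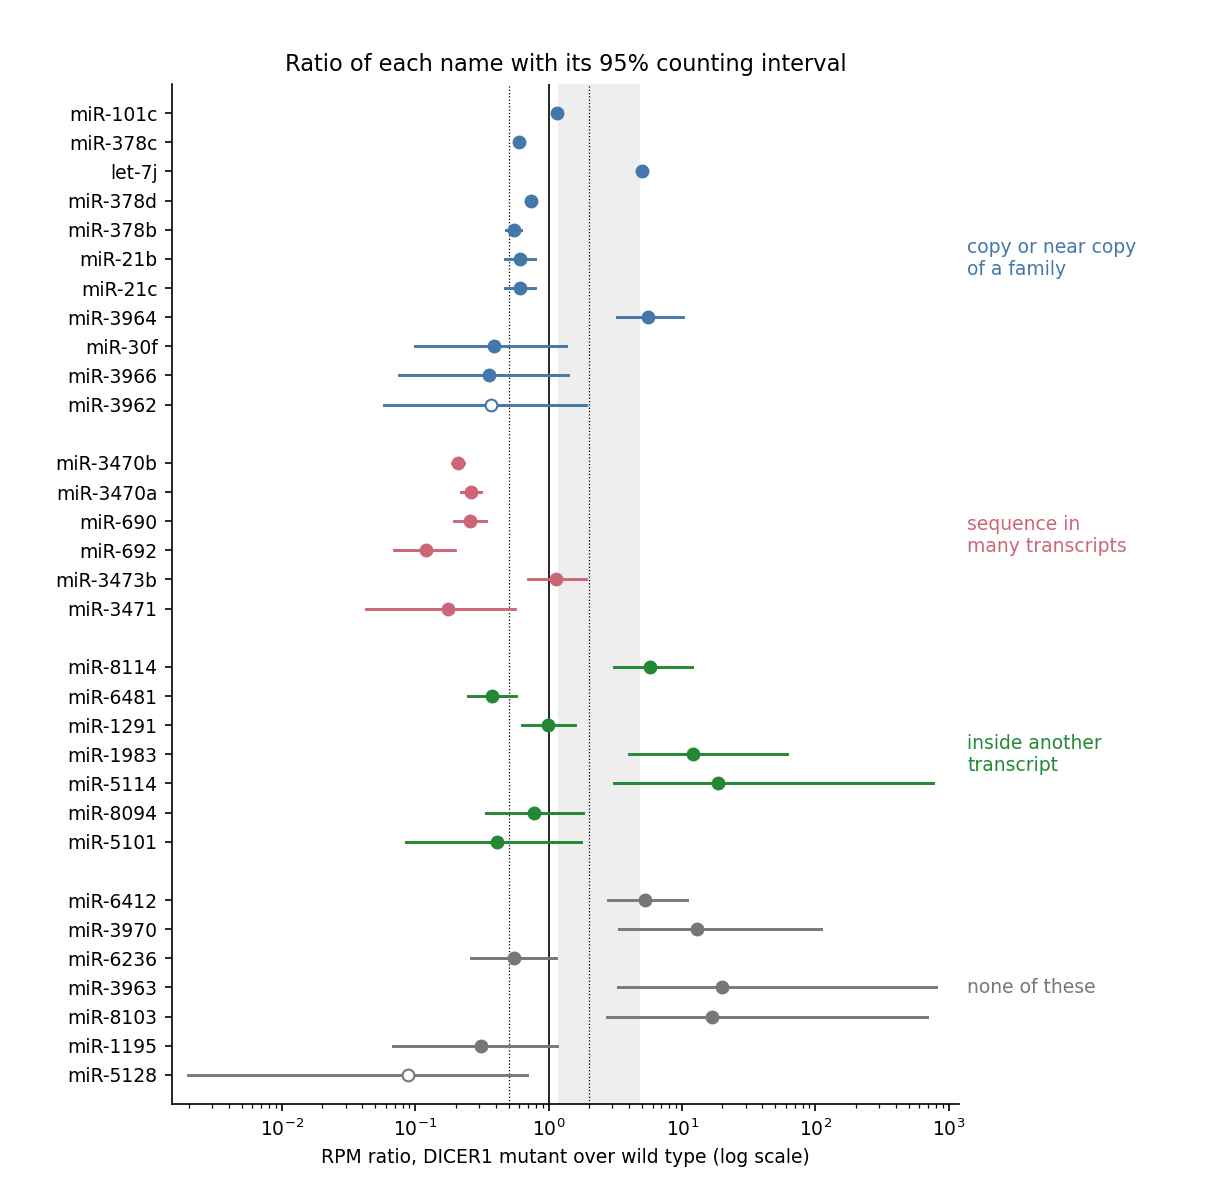
RPM ratio of the mutant over the wild type for each of the 31 names (rows, by group) on a log axis with 95% counting intervals; open points had under 10 reads, dotted lines mark 2-fold, and the grey band is the range of ratios from 1.19 to 4.78 in which no name is listed. In the second group 5 of 6 names lie below the lower line, and the highest ratios of the groups drawn lowest have the widest intervals; with DESeq2 size factors let-7j, miR-3964, miR-8114 and miR-6412 fall below 1.

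The 7 names within or overlapping another annotated transcript did not move together. By RPM 3 (42.9%) were higher, 1 (14.3%) was lower and 3 were neither, beside 62.0% higher and 7.25% lower over all 276 listed names. The median log2 ratio of the 7 was -0.01, with a range of -1.40 to 3.78. Their summed abundance was 16.4 RPM in the mutant and 11.5 RPM in the wild type, a ratio of 1.42 (1.15 to 1.76).

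Those in or overlapping structural RNAs went different ways. miR-6481 is annotated opposite Wars2 on chromosome 3 (99199344 to 99199453, minus strand), and its mature sequence is also found exactly in mt-Tf, the mitochondrial transfer RNA for phenylalanine. It had 40 reads (2.16 RPM) in the mutant and 66 reads (5.77 RPM) in the wild type, 2.67-fold lower (1.77 to 4.06). That call was lost with scaling to the sum of listed counts, at a log2 ratio of -0.99. miR-1291 lies in Snora34, a small nucleolar RNA that guides pseudouridylation, in an intron of Kansl2 on chromosome 15 (98519762 to 98519878, minus strand). It had 53 reads (2.87 RPM) in the mutant and 33 reads (2.89 RPM) in the wild type, a ratio of 0.994 (0.631 to 1.58). The hairpin of miR-1983 overlaps a transfer RNA gene in RefSeq, n-TItat14, on chromosome 13 (21896918 to 21897049, minus strand). The strand of that gene was not compared. No GENCODE M21 transcript held the mature sequence of miR-1983. That search did not cover n-TItat14, which is annotated here by RefSeq only, so it cannot decide whether the sequence lies in that gene. miR-1983 had 59 reads (3.19 RPM) in the mutant and 3 reads (0.262 RPM) in the wild type. Its ratio of 12.2 (3.96 to 60.7) rests on the 3 wild-type reads.

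Those in or overlapping messenger RNAs were likewise mixed. miR-8114 lies in an untranslated exon of Glul, which encodes glutamine synthetase, the ammonia-clearing enzyme of hepatocytes around the central vein (chromosome 1, 153899926 to 153900036, plus strand, opposite Teddm2). It had 102 reads (5.52 RPM) in the mutant and 11 reads (0.962 RPM) in the wild type, 5.74-fold higher (3.07 to 11.9), though its log2 ratio was -0.20, within 2-fold, with DESeq2 size factors. miR-5114 lies in exons of the fatty acid desaturase gene Scd2 (chromosome 19, 44303171 to 44303231, plus strand) and had 30 reads (1.62 RPM) in the mutant and 1 read (0.0875 RPM) in the wild type. Its ratio of 18.6 has an interval of 3.09 to 757. miR-8094 lies in the coding sequence of Ddx39b, an RNA helicase of splicing and messenger RNA export, on chromosome 17 (35251289 to 35251405, plus strand). It had 15 reads (0.812 RPM) in the mutant and 12 reads (1.05 RPM) in the wild type, a ratio of 0.773. miR-5101, whose hairpin overlaps an exon of Syne2 on chromosome 12, had 4 reads in the mutant and 6 in the wild type. No transcript held its mature sequence. Whether these reads are fragments of the host RNA was not tested.

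Among the 7 names that met none of the rules, 6 had enough reads, at low counts. By RPM 4 (66.7%) were higher, none was lower and 2 were neither. That share of higher names is near the 62.0% over all 276 listed names, of which 7.25% were lower. miR-6412, on chromosome 10 (122648339 to 122648435, plus strand), had 93 reads (5.03 RPM) in the mutant and 11 reads (0.962 RPM) in the wild type, 5.23-fold higher (2.79 to 10.8). That call was lost with TMM factors, at a log2 ratio of 0.93, and with DESeq2 size factors, at -0.34. The other 3 higher names had 1 or 2 wild-type reads. miR-3963 had 32 reads (1.73 RPM) in the mutant and 1 read (0.0875 RPM) in the wild type, a ratio of 19.8 (3.31 to 806). miR-3970 had 42 reads (2.27 RPM) in the mutant and 2 reads (0.175 RPM) in the wild type, a ratio of 13 (3.38 to 111). miR-8103 had 27 reads (1.46 RPM) in the mutant and 1 read (0.0875 RPM) in the wild type, a ratio of 16.7 (2.75 to 684). The lowest of their lower bounds was 2.75, while the upper bounds are hardly fixed.

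The rest of that group had few reads in either library. miR-6236 had 16 reads (0.866 RPM) in the mutant and 18 reads (1.57 RPM) in the wild type, a ratio of 0.550 (0.262 to 1.14). miR-1195 had 4 reads (0.216 RPM) in the mutant and 8 reads (0.700 RPM) in the wild type, a ratio of 0.309 (0.0682 to 1.15). No transcript held the whole of miR-1195, but its first 16 bases were found in transcripts of 1320 genes (2.39%), 517 of which also hold the first 16 bases of miR-3470b. miR-5128, which shares a run of 9 bases with miR-3473b, had 1 read in the mutant and 7 in the wild type, below the minimum.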

How the data were processed

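Small RNA libraries from mouse liver (1 DICER1 mutant, 1 wild type) were made with the SMARTer smRNA-seq kit; reads were mapped to mm10 and miRBase 22.1 and classed by hairpin side, per the labels' protocols. cutadapt is named in the submitters' processing notes, and the labels and the series text name different sequencers. Neither the aligner, nor the treatment of reads fitting several names, nor any use of molecular identifiers is given in the sources used here. Raw read counts per mature miRNA were deposited by the authors, with RPM made from them, which fix the library totals. The authors also deposited log2 normalized values (the RPM was multiplied by 0.611 in the mutant and 1.46 in the wild type, 1 was added and log2 taken), a signed fold score and p-values, of which the p-values rest on 2 libraries and were not used. No sample column was left unmapped (0).

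RPM ratios, mutant over wild type, were given exact conditional binomial (Clopper-Pearson) 95% intervals. Quotients of a copy's ratio and its family strand's were given the same kind of interval, and values per 1000 reads likewise. For log2 ratios 0.5 reads were added, in proportion to library size. Intervals of medians are order-statistic intervals over names, which are not replicates. PCR copies are not independent molecules. The calculation was tested on simulated counts. Versions were Python 3.11.15, scipy 1.17.1, pandas 2.3.3, edlib 1.3.9, R 4.3.3, edgeR 4.0.16 and DESeq2 1.42.0, the last 2 for scaling factors only.

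Hairpins were placed with GENCODE M21 on GRCm38, the assembly of mm10, and mature sequences come from RefSeq on GRCm38.p6. Near copies share a family number with, or lie within 3 edits of, a listed name. No genome sequence was used, so exact matches in transcripts of at least 5 genes, on either strand, stood in for genome matches, and exact transcript matches and RefSeq transfer RNA overlaps were added to the exon rule. These rules were widened after the sequences were seen. All 31 names are accounted for, and those with at least 100 reads are given in full. The members and lists were chosen with earlier results of these data known.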

Additional observations from a re-analysis of the deposited data

How the results depend on the processing

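Scaling moved all log2 ratios together, by -1.25 on the authors' scale, 0.42 with the sum of listed counts, -1.44 with TMM, -2.73 with DESeq2 size factors and -0.58 without the most abundant miRNA of each library. Of the 29 names, 20 were lower with TMM, DESeq2 and the authors' factors, and 15 without the top miRNAs. TMM left 7 higher, without let-7j (0.89) and miR-6412 (0.93), and DESeq2 0. Over all 276 listed names, 105 were lower with TMM, DESeq2 and the authors' factors, and 58 without the top miRNAs. TMM left 152 of all listed names higher, and DESeq2 75. DESeq2 and TMM factors came from the listed names alone, most of which are higher by RPM. In the order authors' scale, TMM, DESeq2, without the top miRNAs, the median was -1.96, -2.15, -3.43 and -1.30, both for all 29 names and for the near copies. For names in many transcripts it was -3.36, -3.54 and -4.80 under the authors' scale, TMM and DESeq2, and for names within another transcript -1.44 with TMM and -2.71 with DESeq2. The log2 ratios of miR-101c and miR-3473b reversed to -1.04 and -1.05 by the authors' factors, -1.23 and -1.24 with TMM, and -2.51 for both with DESeq2. DESeq2 also reversed let-7j (-0.40), miR-3964 (-0.26), miR-6412 (-0.34) and miR-8114 (-0.20). With at least 100 reads 4 names were higher, and 10 were lower at 1.5-fold and 3 at 4-fold. With the sum of listed counts the summed ratios were 1.41 for near copies, 1.90 within another transcript and 0.308 in many transcripts. The narrower class rule written at the outset, kept as an alternative after the data were seen, gave 1.23 for near copies, 2.0 within another transcript and 0.622 for the rest, which reversed. The median of that last group was then -0.58. The calls use counts without a pseudocount, so pseudocounts could change only the log2 ratios. No paired analysis was possible because each genotype has 1 library, and leaving out a library was not possible for the same reason. The 5 highest ratios rest on 1 to 3 wild-type reads.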
